A study of Mus musculus with 12 samples.

Results

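The 8 genes described here are Gata1, Zfpm1, Tal1, Klf1, Gfi1b and Nfe2, which encode nuclear factors of red cell precursors, and Epor and Tfrc, which encode the receptors for erythropoietin and for transferrin. They were taken by gene name from the deposited expression table, in which all 8 were found among 34745 genes. Total bone marrow of the femur was collected from male ICR mice, an outbred strain, in 4 groups of 3 mice, and its RNA was sequenced after removal of ribosomal RNA. The age of the mice is not given in the sources used here. The normal group received saline by mouth for 1 week and saline by injection. The model, QJSB and leucogen groups all received cyclophosphamide, which alkylates DNA and is toxic to cells in division, by intraperitoneal injection of 80 mg/kg on each day from day 5 to day 7. During the same week the model group received saline by mouth, the QJSB group received Qi-Jing-Sheng-Bai granule, a herbal preparation, at 3 g/kg per day, and the leucogen group received leucogen, a drug used against low leucocyte counts, at 20 mg/kg per day. No group received a drug without cyclophosphamide, so the effect of either drug on unperturbed marrow could not be measured. The columns of the table are headed Blank, Model, Stilbene and Positive, and these were read as normal, model, QJSB and leucogen by what the headings mean and by elimination.

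Red cells arise in adult marrow from progenitors that depend on erythropoietin, which acts through its receptor and the kinase JAK2 to keep them alive. GATA1, with its cofactor FOG1 (the product of Zfpm1), binds DNA together with TAL1 and its partners at the genes of the red cell programme, and KLF1 acts at many of the same genes, the globins among them. As the precursors make haemoglobin they take up iron bound to transferrin through the transferrin receptor. GATA1, FOG1, TAL1, GFI1B and NF-E2 also serve megakaryocytes, the cells that release platelets.

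Library totals ranged from 11172547 counts in a leucogen library to 18545198 in a QJSB library. Levels are given as CPM, counts scaled to a common library size after TMM scaling over the 12 libraries, and a gene was called when it differed more than 1.5-fold with an adjusted p under 0.05 in the quasi-likelihood test of edgeR, adjusted over all genes tested by the Benjamini-Hochberg method. No libraries of a group agreed within sampling noise (chi-square over its degrees of freedom, 10.2 to 99.6). Alas2, the erythroid enzyme that begins haem synthesis and a marker of these cells, lay between 1497 and 1618 CPM in the normal libraries and between 9.35 and 104 CPM in the 9 libraries of mice given cyclophosphamide.

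All 8 genes are protein coding, and each had counts in all 12 libraries. In the build of the files (GRCm38, mm10) Gata1 lies at chrX:7959260-7978071 on the minus strand, Zfpm1 at chr8:122282141-122337251 on the plus strand, Tal1 at chr4:115056426-115071755 on the plus strand and Klf1 at chr8:84901928-84905295 on the plus strand. Gfi1b lies at chr2:28609450-28621982 on the minus strand, Nfe2 at chr15:103248212-103258403 on the minus strand, Epor at chr9:21958899-21963576 on the minus strand and Tfrc at chr16:32608920-32632794 on the plus strand. The span of Zfpm1 lies within that of a second annotated gene on the same strand, Gm20388, which had 0 counts in every library.

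The 250 bases before the start sites were searched on both strands for the letters that some products of these genes are known to recognise. Any bearing of the matches on the RNA levels was not tested. RefSeq windows in the build GRCm38.p6 were matched for 7 of the 8 genes, in 9 windows, and not for Nfe2. The windows of Tfrc overlap each other. The RefSeq start can lie within the gene span given above, as for Klf1, Gata1, a Tal1 window and a Tfrc window. The bases before the outer end of the Gata1 span were not searched. GATAAG, bound by GATA factors, was found in 3 of the 9 windows, in Klf1 from 81 to 76, in Epor from 55 to 50 and in Gfi1b from 119 to 114 bases before the start, against 6.55% of 32851 windows of all genes. CAGATG, an E-box bound by TAL1 with its partners, was found in 2 of the 9 windows, those of Klf1 and Epor, against 14.44% of all windows. CCNCNCCC, the CACCC-like letters bound by KLF1, was found in 7 of the 9 windows, those of 6 genes, against 45.93% of all windows, and in Epor pairs of its matches overlapped each other. TGAGTCA, the core bound by NF-E2, was found in 0 of the 9 windows, against 4.46% of all windows. The motifs were chosen with the sequences in view, and a match describes letters, not binding. The windows of the 3 genes that hold GATAAG, and that of Gata1, which does not, are shown 5′ to 3′ on the strand of the gene, with matches to the 4 motifs in capitals on either strand. They are chr8:84901732-84901928 on the plus strand for Klf1, which stops at the first base of the gene in the deposited table, and chr9:21963577-21963826 for Epor, chr2:28621983-28622232 for Gfi1b and chrX:7967911-7968160 for Gata1, all on the minus strand.
Klf1: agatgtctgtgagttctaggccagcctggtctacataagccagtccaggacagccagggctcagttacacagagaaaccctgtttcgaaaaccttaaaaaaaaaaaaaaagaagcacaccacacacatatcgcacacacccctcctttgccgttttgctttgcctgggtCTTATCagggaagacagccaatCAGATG
Epor: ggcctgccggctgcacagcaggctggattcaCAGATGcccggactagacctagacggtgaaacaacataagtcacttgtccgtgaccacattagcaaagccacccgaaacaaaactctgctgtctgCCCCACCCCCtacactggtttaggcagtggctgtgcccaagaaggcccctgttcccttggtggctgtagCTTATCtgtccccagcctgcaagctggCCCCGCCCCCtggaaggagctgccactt
Gfi1b: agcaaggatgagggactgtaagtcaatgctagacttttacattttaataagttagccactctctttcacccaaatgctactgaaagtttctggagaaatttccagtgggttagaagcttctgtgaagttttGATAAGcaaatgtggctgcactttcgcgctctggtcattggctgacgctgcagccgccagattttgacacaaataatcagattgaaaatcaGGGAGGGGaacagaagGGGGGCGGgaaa
Gata1: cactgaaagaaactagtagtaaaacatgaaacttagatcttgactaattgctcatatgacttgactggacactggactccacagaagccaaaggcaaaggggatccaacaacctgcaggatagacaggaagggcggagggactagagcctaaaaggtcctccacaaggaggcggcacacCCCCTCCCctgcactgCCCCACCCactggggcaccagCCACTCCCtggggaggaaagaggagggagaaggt

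Cyclophosphamide was accompanied by lower RNA of all 8 genes in the marrow. Model against normal, 8 of 8 were called lower, against 19.0% of the 14752 genes tested, and for 8 of 8 every model library lay below every normal library, against 28.6% of all genes. All 8 were also called by DESeq2, with DESeq2's size factors in edgeR and with total counts as the scaling. The median log2 fold change of the 8 genes was -3.84, and that of all genes tested was 0.02. These are bulk samples, in which fewer erythroid cells and less RNA per cell cannot be told apart.

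Gata1, Zfpm1 and Tal1 had log2 fold changes between -3.98 and -3.70. Gata1, the zinc finger factor required for erythroid and megakaryocyte maturation, measured 59.1, 55.4 and 60.3 CPM in normal 1 to 3 and 6.01, 1.77 and 3.12 CPM in model 1 to 3. Its libraries did not overlap, and the log2 fold change was -3.98 (SE 0.38, adjusted p = 0.000171). Zfpm1, whose product is the cofactor of GATA1, measured 88.0, 87.8 and 95.3 CPM in normal and 10.3, 3.62 and 3.23 CPM in model. Model 1 was the highest model library for both genes, and the fold change of Zfpm1 was -3.97 on the log2 scale (SE 0.44, adjusted p = 0.000516). Tal1, the basic helix-loop-helix factor of the same complex, measured 340.4, 379 and 351 CPM in normal and 42.8, 14.8 and 24.4 CPM in model. It was again highest in model 1 without reaching the normal range, with a log2 fold change of -3.70 (SE 0.37, adjusted p = 0.000322).

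Klf1 showed the largest change of the 8. This activator of the adult beta-globin gene measured 125, 133 and 120.4 CPM in normal and 5.66, 1.42 and 0.924 CPM in model, which were 98, 20 and 16 counts. Model retained 2.11% of the normal mean, and the log2 fold change was -5.54 (SE 0.62, adjusted p = 0.000763). Only 1.40% of all genes tested had a change as low or lower. Gfi1b, a zinc finger repressor needed for red cells and platelets, measured 17.5, 28.8 and 22.4 CPM in normal and 4.27, 1.56 and 1.04 CPM in model. Its groups did not overlap either, and the log2 fold change was -3.30 (SE 0.49, adjusted p = 0.00160).

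Both receptors were lower in model. Epor measured 41.8, 47.5 and 54.6 CPM in normal and 4.10, 1.21 and 0.750 CPM in model. The log2 fold change was -4.54 (SE 0.55, adjusted p = 0.000830), and model 1 alone held 71 of the 101 counts of the group. Tfrc, through which cells take up iron and which dividing cells of many kinds carry, measured 2609.8, 2655 and 2357 CPM in normal and 342, 302 and 174 CPM in model. Here model 1 and model 2 were close together, and the log2 fold change was -3.22 (SE 0.26, adjusted p = 5.37e-05).

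Nfe2 changed least. The gene of the large subunit of NF-E2, which is needed for platelet release, measured 138, 199 and 229 CPM in normal and 106, 84.6 and 123 CPM in model. The groups were apart, but by the narrowest margin of the 8 genes, and model retained 55.5% of the normal mean where the other 7 genes retained between 2.11% and 10.7%. The log2 fold change was -0.84 (SE 0.21, adjusted p = 0.0120), and without normal 3 it was -0.67 with an adjusted p of 0.0533 (edgeR, Benjamini-Hochberg). The plot of CPM by library shows the 4 groups for each gene.

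**Figure D1:**
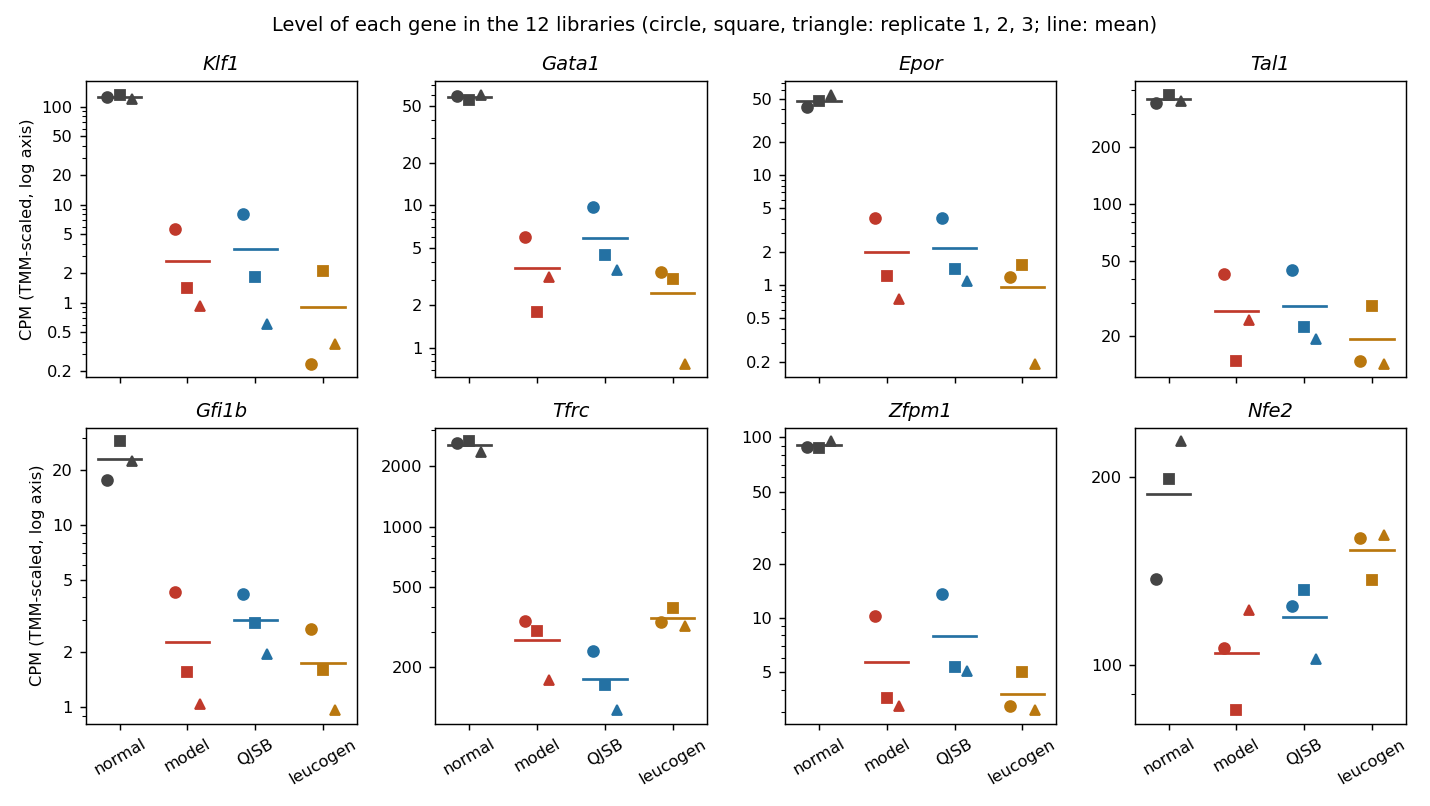
Level of each of the 8 genes in CPM (log axis, a separate scale in each panel) in the 3 libraries of each of the 4 groups, with a line at each group mean. For Klf1, Gata1, Epor, Tal1, Gfi1b, Tfrc and Zfpm1 all 9 libraries given cyclophosphamide lie below the 3 normal libraries, and for Nfe2 the leucogen libraries reach into the normal range.

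Per length, the order of the genes changed as well. In FPKM, which divides by transcript length and so allows genes to be compared, normal marrow held Tfrc at 258 ± 14.7 (SD, n = 3), Klf1 at 80.8 ± 3.93, Tal1 at 34.6 ± 1.97, Epor at 25.7 ± 3.62, Zfpm1 at 20.7 ± 1.14, Gata1 at 20.7 ± 0.981, Nfe2 at 20.1 ± 5.10 and Gfi1b at 7.09 ± 1.76. The levels of Zfpm1, Gata1 and Nfe2 overlapped between libraries, and the other neighbours in this order did not. In model the order began with Tfrc at 30.5 FPKM (18.5 to 39.9) and Nfe2 at 12.1 FPKM (9.77 to 13.6), which did not overlap. The remaining 6 genes lay between 0.791 FPKM for Gfi1b and 2.93 FPKM for Tal1, each overlapping with its neighbours. Tfrc and Nfe2 also came first and second in QJSB, at 18.4 ± 7.65 and 13.0 ± 1.93 FPKM with overlapping libraries, and in leucogen, at 34.7 ± 3.46 and 15.9 ± 1.79 FPKM with libraries apart.

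The ratio of each gene to Gata1 within the same library needs no scaling between libraries. This ratio lay apart between model and normal for 5 of the 7 other genes. No share of such ratios over all genes was computed, and in CPM 55.5% of all genes lay apart in either direction. The 7 ratios share Gata1, which had 104, 25 and 54 counts in model 1 to 3, so they are not independent. The log2 ratio of Klf1 to Gata1 was 1.12 ± 0.14 (SD, n = 3) in normal and -0.71 ± 0.89 in model, and that of Epor to Gata1 was -0.29 ± 0.19 in normal and -1.03 ± 0.85 in model. The ratio of Nfe2 to Gata1 went the other way, from 1.66 ± 0.39 to 4.99 ± 0.75, as did that of Tfrc to Gata1, from 5.44 ± 0.15 to 6.33 ± 0.91, and that of Tal1 to Gata1, from 2.61 ± 0.14 to 2.94 ± 0.10. These 5 ratios did not overlap between the groups, and those of Zfpm1 and Gfi1b did. Over the 42 ratios computed in 6 comparisons, 20 reached p = 0.1 in the exact two-sided permutation test, the smallest that 3 libraries against 3 allow, and the smallest adjusted p was 0.21, so none could pass 0.05.

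**Figure D2:**
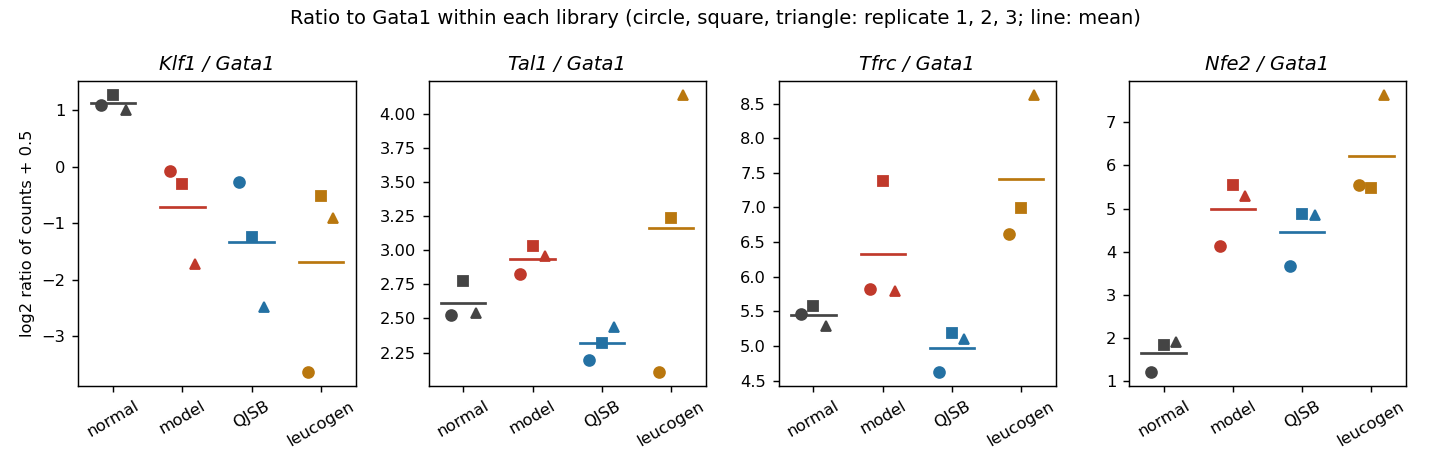
Log2 ratio of Klf1, Tal1, Tfrc and Nfe2 to Gata1 within each library, from counts with 0.5 added, for the 3 libraries of each group with a line at the mean. Klf1 to Gata1 lies lower and Nfe2 to Gata1 higher in every library given cyclophosphamide than in normal, while Tfrc to Gata1 lies lower in QJSB than in model and in leucogen.

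Other genes of the pathway were read against the 19.0% of all genes called lower and the 16.1% called higher in model. Among 16 partners of the GATA1 and TAL1 complexes, 3 were called lower and 0 higher, a share of lower calls near that of all genes, with a median log2 fold change of -0.08. The 3 were the E proteins Tcf3 (-1.66, SE 0.18) and Tcf12 (-1.08, SE 0.12), which pair with TAL1, and Ssbp3 (-1.41, SE 0.18), which binds LDB1. Among 16 genes listed as other erythroid factors, 8 were called lower and 0 higher, with a median of -0.73. Sox6, a factor that silences embryonic globin, fell by 6.12 on the log2 scale (SE 0.52), from 395 ± 66.3 CPM (SD, n = 3) in normal to 5.62 ± 3.99 CPM in model. Trim58, a ubiquitin ligase of late erythroblasts (-3.39, SE 0.35), and E2f2, a cell cycle factor (-2.11, SE 0.18), fell as well. Of the 21 terminal erythroid genes tested, 21 were called lower and their median was -5.47, with Hemgn and Rhd at log2 fold changes of -6.19 and -6.16.

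Of 19 genes tested from a list of erythropoietin signalling, 2 were called lower and 4 higher, and their median was -0.11. Beside 19.0% and 16.1% of all genes, these counts are no result about the list. Bcl2l1, the survival gene that erythropoietin induces in erythroblasts, fell (log2 fold change -2.42, SE 0.14), as did the adaptor gene Gab1 (-0.68, SE 0.20). Socs3, an inhibitor of cytokine receptors, rose by 1.48 (SE 0.38), the adaptor gene Gab2 by 1.28 (SE 0.16) and Kit, the receptor for stem cell factor, by 0.62 (SE 0.16). Of 17 genes of iron uptake and iron control, 7 were called lower and 1 higher, with a median of -0.31. Slc25a37, which carries iron into mitochondria, fell (log2 fold change -3.64, SE 0.17), as did Abcb10, which stabilises that carrier (-2.69, SE 0.14), and Steap3, which reduces iron taken up with transferrin (-2.59, SE 0.27). Hfe, whose product binds the transferrin receptor, rose by 1.66 (SE 0.23). The adjusted p of the genes named here lay under 0.05 (edgeR, Benjamini-Hochberg).

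Markers of other cell types were read against the same shares, 19.0% lower and 16.1% higher. Of 16 megakaryocyte markers edgeR called 0 and DESeq2 called 1, with a median log2 fold change of 0.18. By edgeR 1 had an unadjusted p under 0.05, against 50.2% of all genes. The summed level of these markers was between 409.6 and 932 CPM in normal and between 436 and 1096 CPM in model, with 0 of the 16 at 0. Eosinophil markers, whose lineage also uses GATA1, were called lower for 8 of 9, with a summed level between 1594 and 1967 CPM in normal and between 76.6 and 195 CPM in model. Basophil and mast cell markers were called lower for 5 of 7 and B lineage markers for 11 of 13, while stem and progenitor markers were called higher for 7 of 12. Macrophage markers were called lower for 10 of 12, among them the complement genes C1qc (-1.94, SE 0.21) and C1qa (-1.61, SE 0.18) and the scavenger gene Cd5l (-1.66, SE 0.47), with a summed level between 868 and 993 CPM in normal and between 386 and 508 CPM in model. Late neutrophil markers were called lower for 7 of 15, among them Retnlg (-3.95, SE 1.15), Ly6g (-3.05, SE 0.72) and Mmp9 (-2.79, SE 0.64), with a summed level between 25188 and 30238 CPM in normal and between 8547 and 24638 CPM in model. Proliferation genes, whose cells carry Tfrc, were called lower for 6 of 20, and their summed level was between 10408 and 10718 CPM in normal and between 5279 and 6876 CPM in model. The part of these cell types in the values of the 8 genes was not tested.

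**Figure D3:**
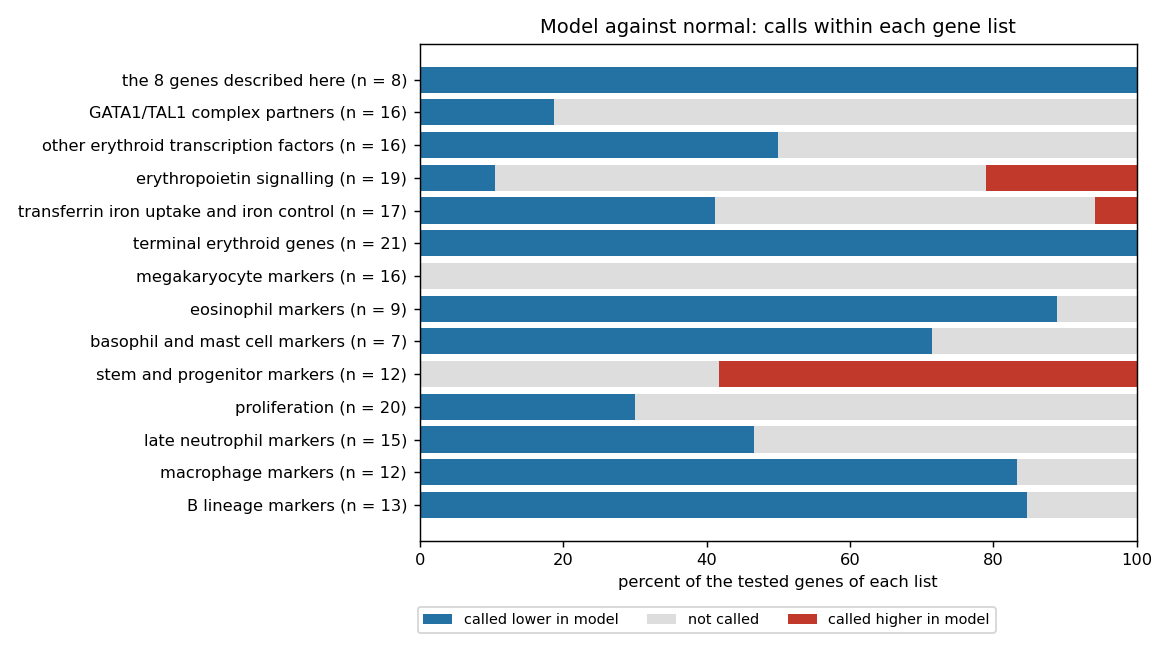
Percent of the tested genes of each list that were called lower, not called or called higher in model against normal, with the number tested in brackets. All 8 genes described here and all 21 terminal erythroid genes were called lower, no megakaryocyte marker was called by edgeR, and stem and progenitor markers were called only in the higher direction.

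The lower levels were also present in mice given a drug beside cyclophosphamide. QJSB against normal, 8 of 8 genes were called lower, against 19.9% of all genes, and 8 of 8 did not overlap, against 29.9%. Leucogen against normal, 7 of 8 were called lower, against 19.8%, and the same 7 did not overlap, against 32.3%. The 3 comparisons share the normal libraries and so are not independent. Relative to the normal mean, Klf1 stood at 2.11% in model, 2.77% in QJSB and 0.719% in leucogen, and Epor at 4.21%, 4.56% and 2.02%. Gata1 stood at 6.24%, 10.1% and 4.14% in the same order, Zfpm1 at 6.32%, 8.82% and 4.18%, Tal1 at 7.66%, 8.05% and 5.43% and Gfi1b at 9.99%, 13.1% and 7.64%. For these 6 factors and receptors the order of the groups was therefore normal, QJSB, model and leucogen, but neighbours after normal overlapped in every case. Tfrc had another order, with 13.8% in leucogen, 10.7% in model and 6.91% in QJSB, as did Nfe2, with 81.2% in leucogen, 63.5% in QJSB and 55.5% in model. For Nfe2 the leucogen and QJSB libraries lay apart, and QJSB and model overlapped. Nfe2 was called lower in QJSB (log2 fold change -0.64, SE 0.20, adjusted p = 0.0313) and lost that call in 7 of 15 alternative analyses. In leucogen its libraries overlapped those of normal (-0.28, SE 0.18, adjusted p = 0.238).

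**Figure D4:**
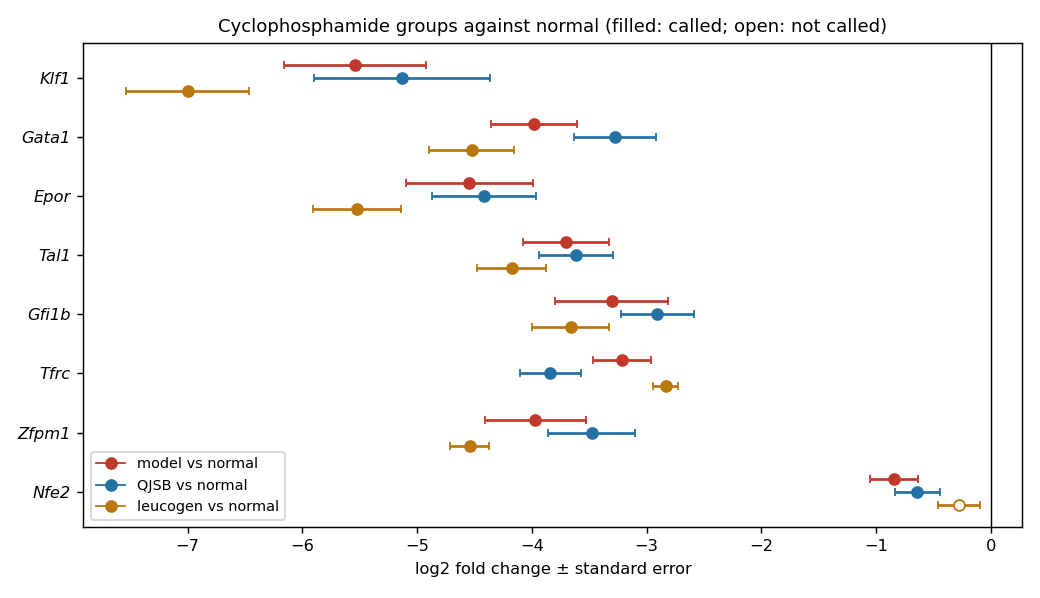
Log2 fold change with its standard error of each of the 8 genes in model, QJSB and leucogen against normal. Filled points were called and the open point was not. All changes lie below 0, from -7.00 for Klf1 in leucogen to -0.28 for Nfe2 in leucogen.

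QJSB and model were compared to ask whether the granule altered the marrow of mice given cyclophosphamide. None of the 8 genes was called, and for 8 of 8 the libraries overlapped, where those of 9.8% of all genes did not. By the same test 0 of the 14486 genes tested were called (0.0%), 723 genes had an unadjusted p under 0.05, and 446 of them also changed more than 1.5-fold. Of the 8 genes described here 0 had an unadjusted p under 0.05, and DESeq2, which called 8 genes in the whole table, called 0 of them. The log2 fold change was above 0 for 7 genes, against 48.0% of all genes, and below 0 for Tfrc, with Tal1 also below 0 under total counts, and had a median of 0.28 beside -0.02 for all genes.

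Gata1, Zfpm1 and Tal1 were each highest in QJSB 1. Gata1 measured 9.72, 4.46 and 3.53 CPM in QJSB 1 to 3, with a log2 fold change against model of 0.68 (SE 0.52, adjusted p = 0.785). Zfpm1 measured 13.5, 5.33 and 5.06 CPM (0.46, SE 0.55, adjusted p = 0.851) and Tal1 44.6, 22.4 and 19.3 CPM (0.06, SE 0.44, adjusted p = 0.981). The standard error exceeded the difference for Zfpm1 and Tal1, and for Gata1 the difference was larger than its error with QJSB 2 and QJSB 3 inside the range of model. Klf1 spread most, at 8.06, 1.85 and 0.609 CPM (0.38, SE 0.98, adjusted p = 0.936), which were 150, 32 and 10 counts. Gfi1b measured 4.19, 2.89 and 1.95 CPM (0.37, SE 0.55, adjusted p = 0.882). Without QJSB 1 the log2 fold change was -1.13 for Klf1, -0.72 for Epor, -0.41 for Tal1 and -0.15 for Zfpm1, each below 0 and not called. With model 1 left out as well, which keeps the same-numbered libraries together, these were 0.05, 0.32, 0.06 and 0.57, and with a block for the replicate number 0.18, 0.20, 0.09 and 0.51, again not called.

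The receptors and Nfe2 were not called either. Epor measured 4.08, 1.39 and 1.10 CPM in QJSB (0.10, SE 0.72, adjusted p = 0.980). Tfrc measured 240.3, 164 and 122 CPM in QJSB, below the same-numbered model library in 3 of 3 pairs, at 0.703, 0.542 and 0.704 of its level. Neither the labels nor the methods pair these mice. The pairs were read from the expression values of these same libraries, so values by pair and fits with the block are a description. The log2 fold change of Tfrc without the block was -0.65 (SE 0.31, adjusted p = 0.767). Nfe2 measured 124, 132 and 102 CPM, with 2 of the 3 above every model library (0.18, SE 0.18, adjusted p = 0.835). With a block for the replicate number, 18 genes were called in the whole table and again 0 of the 8. Tfrc then had an unadjusted p of 0.00264 and an adjusted p of 0.275, both from edgeR's quasi-likelihood test. Gata1 and Zfpm1 were higher in QJSB in 3 of 3 pairs, Zfpm1 at 1.32, 1.47 and 1.56 times the level of the model library. In the edgeR fit with the block, Gata1 had an unadjusted p of 0.0444 and an adjusted p of 0.494, and Zfpm1 had 0.0720 and 0.540. Within libraries, the log2 ratio of Tfrc to Gata1 was 4.97 ± 0.30 (SD, n = 3) in QJSB and 6.33 ± 0.91 in model, and that of Tal1 to Gata1 was 2.32 ± 0.12 and 2.94 ± 0.10. Neither overlapped (exact permutation p = 0.1, adjusted p = 0.21). The ratios of Klf1, Epor, Gfi1b, Zfpm1 and Nfe2 to Gata1 overlapped between QJSB and model (exact permutation p from 0.4 to 0.7).

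Leucogen against model, none of the 8 genes was called by edgeR or DESeq2, where edgeR called 23.1% of the 14184 genes tested. Beside 41.1% of all genes, 1 of the 8 had an unadjusted p under 0.05 by edgeR. This was Nfe2, at 160.2, 137 and 162 CPM in leucogen, all above the model libraries, as were 22.2% of all genes. Its log2 fold change of 0.56 (SE 0.16, adjusted p = 0.0338) lay under the 1.5-fold limit, and it passed as called without model 3 (0.71) or without leucogen 2 (0.64). The libraries of the other 7 genes overlapped. Klf1 had 0.238, 2.10 and 0.384 CPM in leucogen, only 3, 29 and 4 counts, and a log2 fold change of -1.51 (SE 0.94, adjusted p = 0.270). It ranged from -3.08 without leucogen 2 (adjusted p = 0.0703, edgeR) to -0.30 without model 1. Epor had 1.19, 1.52 and 0.192 CPM (-1.02, SE 0.78, adjusted p = 0.359), or 15, 21 and 2 counts. Leucogen 3 was the lowest library of its group for 6 of the 8 genes.

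The other factors also had mean levels under those of model that did not hold against the spread. Gata1 measured 3.42, 3.05 and 0.768 CPM in leucogen (-0.58, SE 0.58, adjusted p = 0.485), and Zfpm1 3.26, 5.004 and 3.07 CPM (-0.59, SE 0.47, adjusted p = 0.372). Tal1 measured 14.9, 28.9 and 14.3 CPM (-0.49, SE 0.43, adjusted p = 0.434), and Gfi1b 2.70, 1.60 and 0.960 CPM (-0.38, SE 0.58, adjusted p = 0.656). Without model 1 the log2 fold changes of Gata1 (0.01), Epor (0.05), Tal1 (0.0026), Gfi1b (0.47) and Zfpm1 (0.16) were at or above 0. Tfrc measured 338, 393 and 322 CPM, of which leucogen 2 alone lay above all of model (0.37, SE 0.23, adjusted p = 0.267).

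In the same comparison 11.6% of all genes were called higher and 11.5% lower. Among the complex partners 2 of 16 were called, a share below the 23.1% of all genes. Runx1, a factor that binds with GATA1 in megakaryocytes, rose by 0.61 on the log2 scale (SE 0.13), and Tcf3 fell by 0.72 (SE 0.19). Nfe2l2, a relative of Nfe2 that serves the oxidative stress response, rose by 0.66 (SE 0.14) as the single call among the 16 other erythroid factors, again below that share. In erythropoietin signalling 2 of 19 were called, both lower, Gab1 (-1.26, SE 0.26) and the signal transducer gene Stat5a (-0.73, SE 0.19). In iron uptake and control 2 of 17 were called higher and 5 lower. Slc40a1, the iron exporter ferroportin, rose by 1.18 (SE 0.19) and Fbxl5, which marks iron regulatory protein for degradation, by 0.92 (SE 0.22), while the ferritin light chain gene Ftl1 (-1.07, SE 0.18), Steap3 (-1.01, SE 0.32) and Pcbp1, which delivers iron to ferritin (-0.97, SE 0.27), fell. Of 19 terminal erythroid genes tested, edgeR and DESeq2 called 0. By edgeR 0 had an unadjusted p under 0.05, against 41.1% of all genes, and 18 had a log2 fold change below 0, against 53.2%. These genes share the same libraries, so their signs are not independent. Their summed level was 2048, 343 and 237 CPM in model 1 to 3 and 251, 864 and 231 CPM in leucogen 1 to 3. The groups overlapped, with model 1 far above the rest of its group. Late neutrophil markers moved with this comparison, called higher for 11 of 15, with a summed level between 61739 and 72136 CPM in leucogen and between 8547 and 24638 CPM in model. Their part in the values above was not tested.

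Between QJSB and leucogen only Tfrc, of the 8 genes, was called. Tfrc was 240.3, 164 and 122 CPM in QJSB and 338, 393 and 322 CPM in leucogen, with every QJSB library below every leucogen library. Its log2 fold change was -1.02 (SE 0.23, adjusted p = 0.0132). It was the 1 of 8 genes called, against 11.7% of all 14266 genes called lower and 24.6% called in either direction. Beside these shares the count is no result about the 8 genes. The call was lost without QJSB 2 (adjusted p = 0.0516) and without leucogen 3 (adjusted p = 0.0522), by the same edgeR test, with Tfrc lower in QJSB in both. The log2 ratio of Tfrc to Gata1 was 4.97 ± 0.30 (SD, n = 3) in QJSB and 7.41 ± 1.07 in leucogen, without overlap (exact permutation p = 0.1, adjusted p = 0.21).

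By the same test Gata1 and the other factors were not called between QJSB and leucogen. Gata1 and Zfpm1, 2 of the 8 genes, were higher in every QJSB library than in every leucogen library, as were 25.6% of all genes. The log2 fold change was 1.25 for Gata1 (SE 0.56, adjusted p = 0.127) and 1.05 for Zfpm1 (SE 0.42, adjusted p = 0.0944). With single libraries left out it ranged from 0.68 (without QJSB 1) to 1.57 (without leucogen 1) for Gata1 and from 0.43 (without QJSB 1) to 1.30 (without leucogen 2) for Zfpm1. Nfe2 did not overlap either and was lower in QJSB (-0.38, SE 0.14, adjusted p = 0.0786), as were 23.2% of all genes. The remaining 4 genes overlapped, and Klf1 had the widest error (1.88, SE 1.08, adjusted p = 0.231) and the widest range, from 0.37 without QJSB 1 to 3.45 without leucogen 2. The log2 fold change was above 0 for 6 genes, against 51.9% of all genes, and below 0 for Tfrc and Nfe2.

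**Figure D5:**
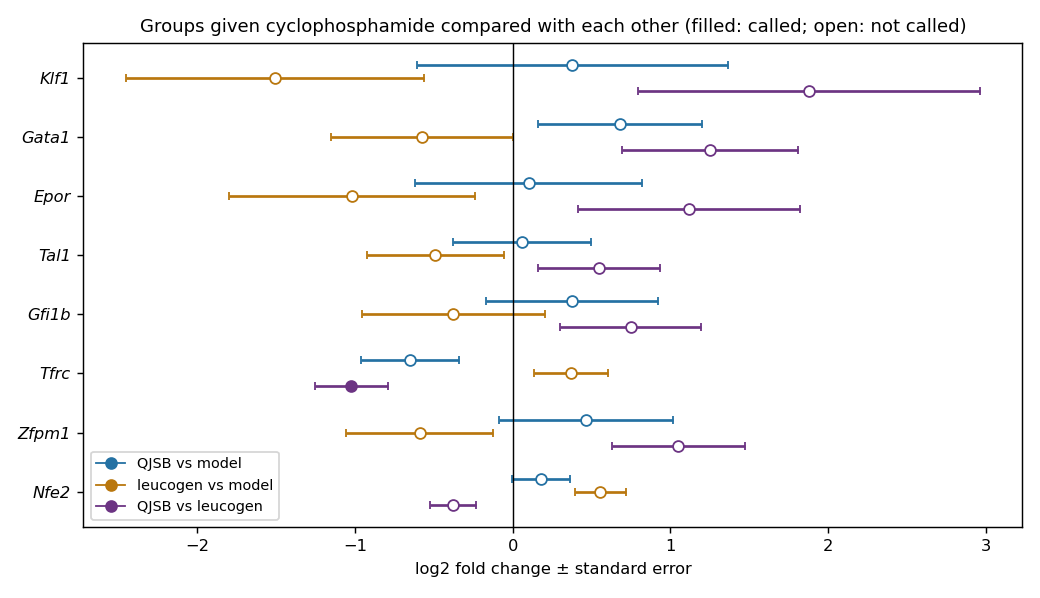
Log2 fold change with its standard error of each of the 8 genes for QJSB against model, leucogen against model and QJSB against leucogen. The single filled point, Tfrc in QJSB against leucogen at -1.02, was the only gene called.

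In model Epor and the factors other than Nfe2 varied more between mice than in the normal group. In the normal group the highest library was between 1.09 and 1.66 times the lowest for every gene. In model this factor was 6.13 for Klf1, 5.46 for Epor, 4.11 for Gfi1b, 3.39 for Gata1, 3.18 for Zfpm1 and 2.90 for Tal1, beside 1.97 for Tfrc and 1.45 for Nfe2. Model 1 and QJSB 1 were each the highest library of their group for 7 of the 8 genes, and QJSB 3 was the lowest of its group for 8 of 8. The summed level of the 6 genes other than Tfrc and Nfe2 was 73.2, 24.3 and 33.4 CPM in model 1 to 3, 84.2, 38.3 and 31.5 CPM in QJSB 1 to 3 and 25.7, 42.2 and 19.7 CPM in leucogen 1 to 3. The terminal erythroid genes also varied between libraries, at 2048, 343 and 237 CPM in model, 875, 673 and 295 CPM in QJSB and 251, 864 and 231 CPM in leucogen. Their order differed from that of the 6 genes, with model 1 above QJSB 1 and model 2 above model 3. Over the 9 libraries given cyclophosphamide, the Pearson correlation of each of the 6 genes with the mean of the other 7 was between 0.78 and 0.88, that of Tfrc was 0.06 and that of Nfe2 was -0.21. The 9 libraries share treatment and differ in depth, and these values are a description.

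The genes whose levels across libraries were most like the mean of the 8 included several genes of red cells. Over 12 libraries and 11797 genes the first 10 were Tspan33 (r = 0.996), Aqp1 (0.99), Rhd (0.99), Kel (0.99), Paqr9 (0.99), Mpp2 (0.99), Sox6 (0.99), Trim58 (0.99), Apol8 (0.99) and Tom1l1 (0.99), correlations that the gap between normal and the other groups sets in large part. Over the 9 libraries given cyclophosphamide the first 10 of 11600 genes were Tspan33 (0.98), Aqp1 (0.97), Rhag (0.93), Ank1 (0.93), Kel (0.93), Paqr9 (0.93), Ube2e3 (0.91), Sox6 (0.90), Slc14a1 (0.90) and Prr5 (0.89). These were picked as the highest of 11600 genes over only 9 libraries, and such a choice gives high values by itself. The mean of the 8 includes Tfrc and Nfe2, whose correlations with the mean of the others were 0.06 and -0.21 over these libraries. The 12-library and 9-library sets share 5 genes. Tspan33 encodes a membrane protein of erythroblasts, Aqp1 the water channel of red cells, Rhag and Kel blood group proteins, and Ank1 the ankyrin that holds the red cell skeleton.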

How the data were processed

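RNA of femoral bone marrow from 12 mice was sequenced by the authors as strand-specific libraries without ribosomal RNA, filtered with Seqtk and mapped with HISAT2 to mm10; the program that counted reads, its use of strand and its annotation are not given in the sources used here. The deposited counts are whole numbers without normalization, and the deposited FPKM values were computed by the authors from fragments, transcript length and total fragments. FPKM was used to order genes within a group and in limma alternatives only.

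Counts were tested with edgeR 4.0.16 (TMM, filterByExpr, robust glmQLFit, glmQLFTest) in R 4.3.3, on the 6 libraries of each of 6 comparisons. The test was first run on simulated counts with known changes. P-values measure the spread between 3 mice a group, and depth covers counting error only. Alternatives were DESeq2 1.42.0, its size factors in edgeR, total counts, no filter, a minimum of 10 counts in each library, a joint fit of the 12 libraries, the replicate block, limma 3.58.1 on log2(FPKM + 0.1) and log2(FPKM + 1), and each library left out in turn. Leaving out both libraries numbered 1 was chosen after seeing the data.

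To see whether replicate numbers pair the libraries, the deviations from the group mean of libraries with the same number were correlated over 15310 genes. QJSB with model gave 0.43, 0.12 and 0.11, and in no other comparison did all 3 exceed 0.1. QJSB with leucogen gave 0.18, 0.13 and 0.08. The 3 deviations of a group are tied through their mean, so the 3 values are not independent and cannot settle the pairing. Values by pair were given for QJSB and model on this ground alone, and the main test used no pairing.

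The 8 genes and 13 further lists (195 different genes, 2 of them in more than 1 list) were chosen with earlier results of these data known, and so support no direction independently. Genes named from the lists are up to 3 rises and 3 falls, called, without overlap and with a mean of at least 50 counts, model against normal and leucogen against model. A gene that this rule names is not reported here. Like genes are the 10 with the highest Pearson correlation of log2 CPM (prior count 2) to the mean of the standardised members. Ratios had 0.5 added to counts.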

Additional observations from a re-analysis of the deposited data

How the results depend on the processing

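For the log2 fold changes of the 8 genes, 425 of 431 values under other settings and 265 of 288 with a library left out had the direction and the side of the threshold given above. DESeq2 called 8 genes in QJSB against model and leaving out both libraries numbered 1 called 23, with 0 of the 8 genes in either; with single libraries left out it was 0 to 3. Leucogen against normal, a minimum of 10 counts in every library left 5 of the 8 genes to test and 4 called. With single libraries left out, members called ranged from 7 to 8 for model and for QJSB against normal, from 0 to 1 for leucogen against model and from 0 to 1 for QJSB against leucogen. Genes called then ranged from 1239 (without leucogen 3) to 3953 for leucogen against model, where 3276 were called with all libraries, and from 1544 (without leucogen 3) to 3585 for QJSB against leucogen, where 3511 were.

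With a block for the replicate number, 18 genes were called in QJSB against model and 2 of the 8 in QJSB against leucogen. In the latter Gata1 joined Tfrc (log2 fold change 1.30, adjusted p = 0.0330, edgeR with Benjamini-Hochberg adjustment). Numbers were not taken to pair QJSB with leucogen, and the check used cannot settle this. Nfe2, QJSB against normal, lost its call under the block (-0.62, adjusted p = 0.0593, edgeR). The block changed no other call of the 8 genes.

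Tal1, QJSB against model, turned from 0.06 to -0.0125 with total counts and to -0.0016 with log2(FPKM + 1). With single libraries left out, the QJSB against model range was -1.13 to 1.57 for Klf1, -0.72 to 1.16 for Epor, -0.41 to 0.54 for Tal1 and -0.15 to 1.20 for Zfpm1. The leucogen against model range was -0.89 to 0.0093 for Gata1, -1.48 to 0.0532 for Epor, -0.89 to 0.0026 for Tal1, -0.82 to 0.47 for Gfi1b and -0.84 to 0.16 for Zfpm1. Total counts moved the median of all genes to 0.14 in model against normal and to -0.22 in leucogen against model. The causes were not tested. Depth limited Klf1, Epor and Gata1 most, with as few as 3, 2 and 8 counts in a leucogen library.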
